A study of Mus musculus with 4 samples.

Results

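The PGC-1 co-activators and the transcription factors they work with set how many mitochondria a cell builds and how it burns fuel. In the table of 22556 genes, 9 genes of this system were followed by their symbols. These were the co-activators Ppargc1a, Ppargc1b and Pprc1, the nuclear receptors Esrra, Esrrg and Ppara, the nuclear respiratory factors Nrf1 and Gabpa, and the mitochondrial transcription factor Tfam. The set was chosen by the FPKM values of Ppargc1a, which were higher in Stk11-deleted lungs, so its values are given as a description, with no test.

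The RNA-seq libraries were made from whole E16.5 mouse lungs, 2 for each genotype. Control embryos were Shh-Cre; Stk11F/+ and deleted embryos (Shh-Stk11) were Shh-Cre; Stk11F/F. Embryos of both groups thus carried the Shh-Cre driver and at least 1 floxed allele, and the driver acts in the endoderm that gives rise to the lung epithelium, while mesenchyme, vessels and blood keep Stk11. The strain was C57BL/6 per the labels and a mixed background per the methods of the study, which compared the genotypes to ask how the kinase STK11 acts in ciliated cell differentiation. All values are FPKM, reads scaled for transcript length and library depth, so that levels can also be compared between genes.

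PGC-1 co-activators do not bind DNA themselves. They are recruited by nuclear receptors and nuclear respiratory factors to genes of respiration, fatty acid oxidation and, in liver, gluconeogenesis, and through Tfam to the transcription and upkeep of mitochondrial DNA. STK11 phosphorylates and activates AMPK, a sensor of low energy that in muscle raises the expression and activity of PGC-1α. PGC-1α is best known from brown fat, heart, skeletal muscle and fasted liver, tissues rich in mitochondria.

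The libraries held an estimated 30.8 to 38.0 M reads, and 13623 to 13709 genes per library reached 0.5 FPKM. The deleted gene, Stk11, was at 44.0 and 45.5 FPKM in the Control libraries and at 29.5 and 26.0 FPKM in the Shh-Stk11 libraries, each of them below each Control. By Xist and the Y-linked Ddx3y, Shh-Stk11 2 was male and the other 3 libraries were female, so sex is not balanced between the genotypes. Of 13770 genes tested with limma, 0.98% were higher and 1.29% lower in Shh-Stk11 lungs at an adjusted p under 0.05, and the median log2 difference of all genes was -0.05.

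Ppargc1a encodes PGC-1α, the inducible member of the family. It was at 2.28 FPKM (Control 1) and 1.99 FPKM (Control 2), against 7.20 FPKM (Shh-Stk11 1) and 7.97 FPKM (Shh-Stk11 2). Both Shh-Stk11 libraries lay above both Controls, and the lower of them was 3.15 times the higher Control. The mean was 2.14 ± 0.206 FPKM (Control) and 7.58 ± 0.547 FPKM (Shh-Stk11), each with the SD over n = 2, a 3.55-fold difference and 1.78 on the log2 scale. The gene ranked 56 of 13770 from the highest log2 difference, a high rank that its choice for this rise brings with it. In estimated reads, these levels rested on 544 and 393 reads for Control and 1388 and 1652 for Shh-Stk11, with a counting error of 5.04% for Control 2, the lowest. Without the male library, Shh-Stk11 2, the log2 difference was 1.71, which leaves only Shh-Stk11 1 against the Controls. Any part of sex in these values was not tested. In whole lung, more cells with Ppargc1a and more Ppargc1a RNA per cell cannot be told apart.

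**Figure D1:**
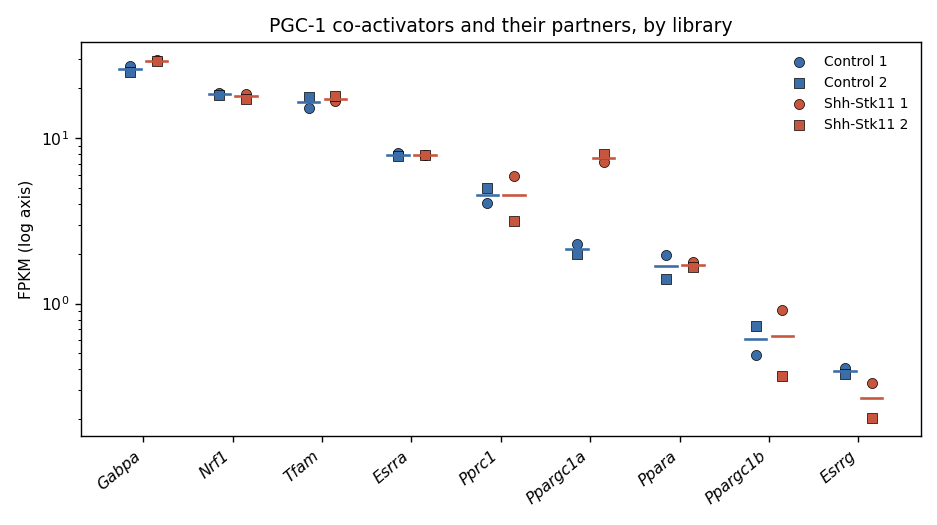
FPKM of the 9 genes (log axis), ordered by their Control mean. Points are single libraries, circles for replicate 1 and squares for replicate 2, and short lines are the means of 2 libraries. The genotypes stand widest apart for Ppargc1a, at 1.99 and 2.28 FPKM against 7.20 and 7.97 FPKM.

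The 250 bases before the start of Ppargc1a are shown because it is the gene that stood apart. They lie at chr5:51567726-51567975, on the minus strand, in GRCm38.p6 of RefSeq. A handful of motifs was searched in the windows of all annotated starts, on both strands: the cAMP response element TGACGTCA and its hexamer TGACGT, the NRF-1 core GCATGCGC, the ETS core CCGGAAG and the ERR core AAGGTCA. The first contains the second. The capitals mark the hexamer on the opposite strand, whose farthest base is 50 bases before the start.

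Ppargc1a: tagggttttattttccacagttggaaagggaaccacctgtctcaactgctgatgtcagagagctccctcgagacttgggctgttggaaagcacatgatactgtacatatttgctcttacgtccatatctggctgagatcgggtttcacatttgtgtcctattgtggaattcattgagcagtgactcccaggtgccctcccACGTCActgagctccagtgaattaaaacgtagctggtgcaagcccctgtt

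The full 8-base response element did not occur in this window. The hexamer occurred in 6.47% and the full element in 1.55% of 32851 windows of the same length. The cAMP response element is bound by CREB1, which drives Ppargc1a in fasted liver. The window had a GC content of 48.0%, within the range of 41.6% to 76.4% over the 12 windows of the genes followed here.

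Neither of the other co-activators passed the test. Ppargc1b, which encodes PGC-1β, the close relative of PGC-1α, was the lowest of the family with 0.487 FPKM (Control 1) and 0.733 FPKM (Control 2), against 0.910 FPKM (Shh-Stk11 1) and 0.366 FPKM (Shh-Stk11 2). The Shh-Stk11 libraries gave both the highest and the lowest value, so the groups overlapped. Its log2 difference was -0.03 (SE 0.456, 95% interval -1.12 to 1.07, limma adjusted p 0.985), with 42 to 97 estimated reads per library and a counting error of 15.4% in the lowest. Pprc1 encodes the PGC-1-related co-activator PRC, known for its link to cell growth. It was at 4.06 and 4.98 FPKM in the Controls, against 5.88 and 3.16 FPKM after deletion (replicates 1 and 2 of each genotype in that order, as for all pairs that follow). The 2 Shh-Stk11 libraries again enclosed the Controls (log2 difference -0.06, SE 0.293, 95% interval -0.76 to 0.65, limma adjusted p 0.947). In both genes, Shh-Stk11 1 was the highest library and Shh-Stk11 2, the male one, the lowest, by factors of 2.49 for Ppargc1b and 1.86 for Pprc1.

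The make-up of the family therefore differed. Ppargc1a held 33.4% and 25.9% of the summed FPKM of the 3 co-activators in the Control libraries and 51.5% and 69.3% in the Shh-Stk11 libraries. The sum was 6.83 and 7.71 FPKM in the Controls, against 13.98 and 11.5 FPKM after deletion. Pprc1 held the larger share in each Control, at 59.4% and 64.6%, and the smaller share in each Shh-Stk11 library, at 42.0% and 27.5%. These shares contain the Ppargc1a values by which the set was chosen and carry no test.

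**Figure D2:**
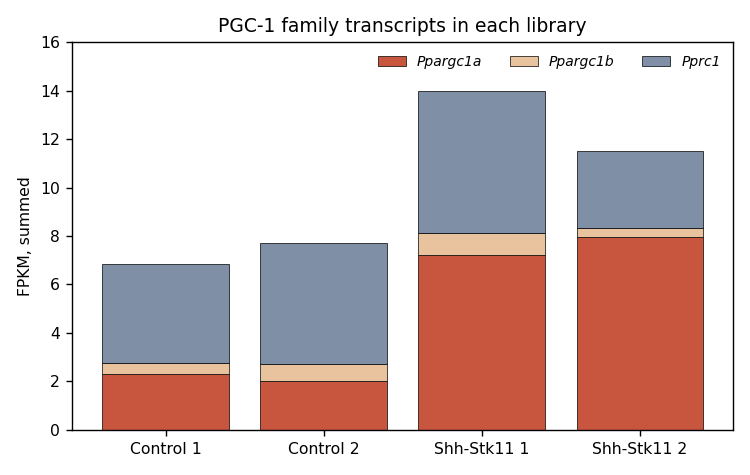
Summed FPKM of Ppargc1a, Ppargc1b and Pprc1 in each library, as stacked bars from 0. The Shh-Stk11 bars are taller, at 13.98 and 11.5 FPKM against 6.83 and 7.71 FPKM, and Ppargc1a makes up most of the added height.

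Among the nuclear receptors, Esrra encodes ERRα, the main partner through which PGC-1α reaches genes of respiration, and is itself a target of that pair. It was at 8.07 FPKM (Control 1) and 7.79 FPKM (Control 2), against 7.86 FPKM (Shh-Stk11 1) and 7.91 FPKM (Shh-Stk11 2). These were the closest values of the set, within a factor of 1.04 from lowest to highest. The log2 difference was -0.01 (SE 0.126, 95% interval -0.31 to 0.30, limma adjusted p 0.986). Per FPKM of Esrra, Ppargc1a was at 0.283 and 0.256 in the Control and at 0.916 and 1.01 in the Shh-Stk11 libraries. These are ratios of RNA in whole lung, not of protein, and contain the values for which Ppargc1a was chosen.

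Ppara encodes PPARα, the fatty acid receptor that switches on fat oxidation with PGC-1α. It was at 1.97 and 1.40 FPKM in the Controls, against 1.77 and 1.67 FPKM after deletion. Both Shh-Stk11 values fell between the Controls (log2 difference 0.04, SE 0.237, 95% interval -0.53 to 0.61, limma adjusted p 0.952). Esrrg encodes ERRγ, a relative of ERRα known from heart and other oxidative tissue. It was at 0.405 and 0.375 FPKM in the Controls, against 0.333 and 0.202 FPKM after deletion, on 35 to 80 estimated reads, and its mean was under the 0.5 FPKM needed for the test. Both Shh-Stk11 values were below both Controls, a pattern shared by 27.6% of the genes tested. With the limit lowered to 0.1 FPKM, its limma adjusted p was 0.576.

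The nuclear respiratory factors and Tfam were the most abundant of the set. Nrf1, which encodes nuclear respiratory factor 1, an activator of Tfam and of respiratory chain genes, was at 18.8 and 18.3 FPKM in the Controls, against 18.5 and 17.2 FPKM after deletion. The groups overlapped (log2 difference -0.05, SE 0.119, 95% interval -0.34 to 0.23, limma adjusted p 0.877). Gabpa encodes the DNA-binding subunit of the factor also called NRF-2. It was at 27.2 and 25.1 FPKM in the Controls, against 29.5 and 29.1 FPKM after deletion. Both Shh-Stk11 libraries were above both Controls, as in 19.2% of the genes tested, and the log2 difference of 0.17 (SE 0.118, 95% interval -0.12 to 0.45) did not pass the test, with a limma adjusted p of 0.569. Tfam packages and transcribes mitochondrial DNA and is the classic end point of this cascade. It was at 15.3 FPKM (Control 1) and 17.8 FPKM (Control 2), against 16.7 FPKM (Shh-Stk11 1) and 17.9 FPKM (Shh-Stk11 2), and the groups overlapped (log2 difference 0.07, SE 0.134, 95% interval -0.25 to 0.39, limma adjusted p 0.849).

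**Figure D3:**
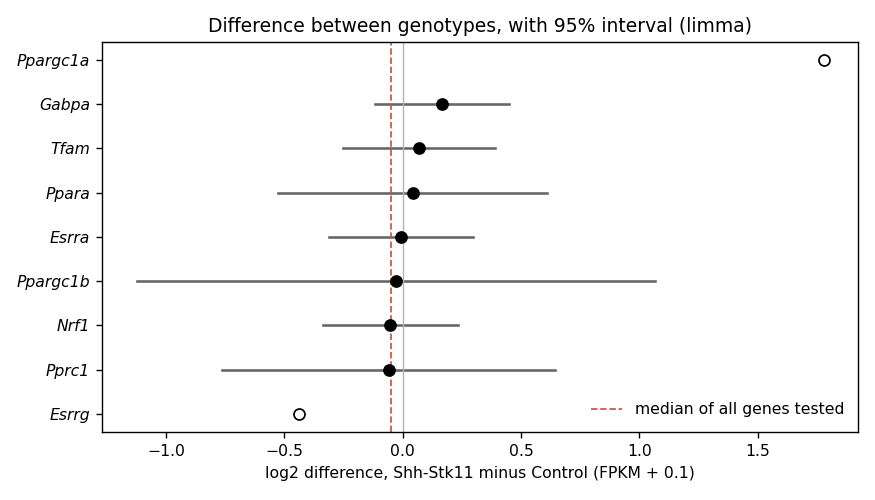
Log2 difference between Shh-Stk11 and Control lungs for the 9 genes. Filled points have a 95% interval from limma (horizontal lines). Open points are Ppargc1a, given without a test, and Esrrg, under the level needed for one. The dashed line is the median of all genes tested, -0.05, and all 7 intervals contain it.

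Of the 8 genes other than Ppargc1a, 7 were tested and 0 passed the adjusted threshold in limma, beside 0.98% higher and 1.29% lower among all genes. None was at an unadjusted p under 0.05 (0 of 7, against 8.04% higher and 7.18% lower at that p among all genes), and their median log2 difference was -0.01. The order of levels in Control lungs ran from Gabpa over Nrf1, Tfam, Esrra, Pprc1, Ppargc1a, Ppara and Ppargc1b to Esrrg, and no neighbours in that order overlapped between their libraries. In Shh-Stk11 lungs Ppargc1a stood at the level of Esrra, whose values lay between its own, and above Pprc1. Nrf1 and Tfam also overlapped there.

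Windows were at hand for 8 of the 9 genes, all but Ppargc1b, 12 windows in all. The stretches with a match are shown for the partners, to set beside their levels, which did not pass the test. Capitals mark the NRF-1 core in Esrra (chr19:6921810-6921869, minus strand) and in Ppara (chr15:85735716-85735775, plus strand), where copies on both strands overlap. In Tfam (chr10:71238059-71238118, minus strand) and Gabpa (chr16:84835004-84835063, plus strand) they mark the ETS core, which GABPA itself can bind, read on the opposite strand in Gabpa.
Esrra: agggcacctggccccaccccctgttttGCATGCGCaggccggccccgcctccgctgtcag
Ppara: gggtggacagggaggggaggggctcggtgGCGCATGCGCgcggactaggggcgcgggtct
Tfam: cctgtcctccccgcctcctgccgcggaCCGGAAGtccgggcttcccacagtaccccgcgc
Gabpa: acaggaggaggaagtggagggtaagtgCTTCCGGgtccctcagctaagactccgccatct

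The matches begin 34 bases before the start in Esrra, 31 in Ppara, 47 in Tfam and 93 in Gabpa. The NRF-1 core occurred in 2.26%, the ETS core in 6.91% and the ERR core in 4.08% of all windows. None of the letters searched occurred in the windows of Pprc1, Nrf1 or Esrrg, and the ERR core occurred in none of the 12. A match describes these letters only.

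The genes around the co-activators were taken from 9 lists of the pathway, to see which moved beside Ppargc1a. Of 174 genes counted here, 161 in 8 of the lists could be read and 146 were tested. In Shh-Stk11 lungs, 1 was higher (0.685%, against 0.98% of all genes) and 0 were lower (against 1.29%). The 1 higher gene was listed with its rise known, so the choice fixed this share in advance. At an unadjusted p under 0.05 there were 9 of the 146, against 15.2% of all genes. Their median log2 difference was -0.08, against -0.05 over all genes. The last list, the 13 protein genes encoded in mitochondrial DNA, was not analysed here.

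Fbp1 was the gene that passed. It encodes fructose-1,6-bisphosphatase, an enzyme of gluconeogenesis that PGC-1α induces in liver. It rose from 0.642 and 0.516 FPKM to 13.8 and 13.7 FPKM (23.7-fold, log2 difference 4.36, SE 0.177, limma adjusted p 0.000559). It was known to rise in these libraries when the list was written. Of the 2 other liver enzymes of that route on the list, named after their values were seen, Pck1 was at no more than 0.0125 FPKM and G6pc was listed at 0 in every library.

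The list of fatty acid oxidation and PPARα targets had 33 genes counted here, of which 28 were tested, with 0 past the threshold in limma, 2 at an unadjusted p under 0.05 and a median log2 difference of -0.09. The median was 0.0386 with length and GC trends removed, 0.0176 without Shh-Stk11 1 and -0.15 without Shh-Stk11 2. Cpt1a, the entry gate of long-chain fatty acids into mitochondria, was at 18.9 and 16.2 FPKM in the Controls, against 23.5 and 22.8 FPKM after deletion (log2 difference 0.40, limma adjusted p 0.199). Fabp3, the fatty acid binding protein of heart and muscle, was at 5.22 and 7.90 FPKM in the Controls, against 3.60 and 2.02 FPKM after deletion (log2 difference -1.22, limma adjusted p 0.117). Its adjusted p was 0.0374 without Shh-Stk11 1. Fabp3 was highest in Control 2 and lowest in Shh-Stk11 2, and so was the sum of heart muscle markers. The summed FPKM of the 12 heart genes ran from 70.3 in Shh-Stk11 2 over 137.8 in Control 1 and 173.2 in Shh-Stk11 1 to 294.8 in Control 2. Shh-Stk11 1 thus had a larger heart sum than Control 1 but less Fabp3. Any part of heart tissue in the Fabp3 values was not tested.

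**Figure D4:**
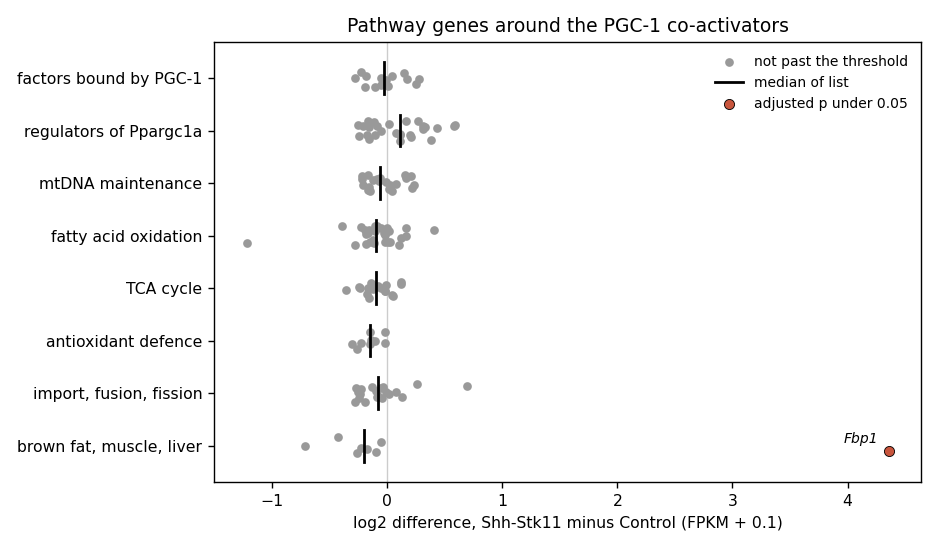
Log2 difference of the tested genes of 8 pathway lists. Each point is 1 gene, the larger coloured point passed the adjusted threshold in limma, and black bars are list medians, which lie between -0.20 and 0.11. Of the genes shown, Fbp1 passed, at 4.36.

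The genes that act on Ppargc1a or on its protein had a median log2 difference of 0.11 over 27 tested genes. None passed the test in limma (0 of 27), and 4 were at an unadjusted p under 0.05, all of them higher, against 8.04% higher at that p among all genes. Creb1, which encodes a factor that binds cAMP response elements, was at 14.0 and 13.02 FPKM in the Controls, against 21.7 and 18.8 FPKM after deletion (log2 difference 0.58, SE 0.132, limma adjusted p 0.0885). Nrip1, which encodes the co-repressor RIP140, an opponent of PGC-1α, was at 5.94 and 4.29 FPKM in the Controls, against 8.53 and 6.87 FPKM after deletion (log2 difference 0.59, limma adjusted p 0.230). With the trends in transcript length and GC content removed, the difference of Creb1 was 0.17, that of Nrip1 0.34 and the list median 0.0084. Without Control 2 the list median was -0.03, and without Shh-Stk11 1 it was -0.02. The difference of Nrip1 was 0.82 without Control 1 and 0.36 without Control 2. The genes of the AMPK catalytic subunits are on this list and are named after their values were seen. Prkaa1 was at 14.3 and 13.7 FPKM in the Controls, against 15.4 and 14.9 FPKM after deletion (limma adjusted p 0.703), and Prkaa2 stayed between 1.43 and 1.80 FPKM in all libraries.

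The factors that PGC-1 co-activators bind, beyond the genes above, had a median log2 difference of -0.03 over 14 tested genes. None passed (0 of 14, limma), and none was at an unadjusted p under 0.05. Nr1h3, the oxysterol receptor LXRα, was at 19.3 and 18.6 FPKM in the Controls, against 14.0 and 17.3 FPKM after deletion (limma adjusted p 0.430). Gabpb2, a partner subunit of GABPA, was at 16.2 and 15.7 FPKM in the Controls, against 20.0 and 18.8 FPKM after deletion (limma adjusted p 0.342).

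Downstream, the 21 genes that copy, transcribe and maintain mitochondrial DNA stayed within -0.22 and 0.24 on the log2 scale, with a median of -0.07. None passed the test in limma or was at an unadjusted p under 0.05 (0 of 21). The outermost were Polg2 and Mterf2. Polg2, the accessory subunit of the mitochondrial DNA polymerase, was at 5.63 and 5.53 against 4.63 and 4.91 FPKM. Mterf2, a terminator family member, was at 3.67 and 4.72 against 5.07 and 4.77 FPKM. The log2 difference of Mterf2 was 0.41 without Control 2 and 0.0582 without Control 1. The 19 genes of the tricarboxylic acid cycle and cytochrome c had 0 of 19 past the threshold or at an unadjusted p under 0.05 and a median of -0.10, which was -0.19 without Control 1, -0.0283 without Control 2, -0.0121 without Shh-Stk11 1 and -0.16 without Shh-Stk11 2. Sdha, the flavoprotein of succinate dehydrogenase, was at 141.5 and 148.5 FPKM in the Controls, against 89.7 and 142.0 FPKM after deletion, so that only Shh-Stk11 1 lay well below the others. Suclg2, a subunit of succinyl-CoA ligase, was at 33.5 and 35.0 against 28.4 and 29.3 FPKM (limma adjusted p 0.388).

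The 9 genes of mitochondrial antioxidant defence, which PGC-1α induces in neurons and muscle, had a median log2 difference of -0.15, with 0 of 9 past the threshold or at an unadjusted p under 0.05. The median was -0.0328 with length and GC trends removed, -0.0432 with quantile normalization, -0.0516 without Shh-Stk11 1 and -0.25 without Shh-Stk11 2. The outermost were Txnrd2, the mitochondrial thioredoxin reductase, at -0.30, and Gpx1, a glutathione peroxidase, at -0.26. With those trends removed, Txnrd2 was at -0.173 and Gpx1 at -0.0112. Gpx1 was at -0.0768 without Shh-Stk11 1 and at -0.44 without Shh-Stk11 2. Of the 20 genes of protein import, chaperones, fusion and fission, 0 passed and 1 was at an unadjusted p under 0.05. This was Dnm1l, which encodes the fission GTPase DRP1, at 13.7 and 17.8 FPKM in the Controls, against 27.2 and 23.6 FPKM after deletion (log2 difference 0.69, SE 0.166, limma adjusted p 0.1002). Hspe1, the small mitochondrial chaperonin, was at 146.2 and 206.5 FPKM in the Controls, against 136.8 and 149.1 FPKM after deletion, so the groups overlapped.

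The genes that PGC-1α drives in brown fat, muscle and liver had 8 of 15 members tested, with a median log2 difference of -0.20 and Fbp1 as the 1 that passed. The median was -0.0371 with length and GC trends removed, -0.0227 when Shh-Stk11 1 was left out and -0.36 when Shh-Stk11 2 was. Cox8b, the cytochrome oxidase subunit of heart and brown fat, was at 1.52 and 3.05 FPKM in the Controls, against 1.66 and 0.965 FPKM after deletion, and Sirt3, the mitochondrial deacetylase, at 11.1 and 10.7 against 7.14 and 9.20 FPKM (limma adjusted p 0.270). Ucp1, the defining gene of brown fat, named after its values were seen, did not exceed 0.0451 FPKM.

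Markers of the tissues in which PGC-1α is abundant were set beside Ppargc1a. Of the 12 heart markers, whose sums are given above with Fabp3, the atrial myosin gene Myl7 had the highest single value. It was at 42.3 and 108.3 FPKM in the Controls, against 58.6 and 17.2 FPKM after deletion. In Shh-Stk11 2 the actin gene Actc1 was above it, at 22.4 FPKM. Myh6 lay between 0.885 and 5.22 FPKM. The 9 skeletal muscle markers summed to 15.3 to 27.2 FPKM, with Control 2 highest and Myod1 at 0 throughout. The 6 liver markers summed to between 0.6796 and 2.08 FPKM, with Serpina1a at 0 in all libraries. The 6 brown fat markers summed to 5.78 and 4.83 FPKM in Control and to 5.84 and 6.25 FPKM in Shh-Stk11 lungs. Most of each sum was Prdm16. Cidea was at no more than 0.298 FPKM, Adipoq, Ucp1 and Plin1 at no more than 0.0880 FPKM and Elovl3 at no more than 0.0189 FPKM. None of the tested markers of these 4 tissues passed the test in limma in either direction (0 of 9, 0 of 4, 0 of 1 and 0 of 1, with 0 at an unadjusted p under 0.05). Any part of these tissues in the Ppargc1a values was not tested.

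Ppargc1a was also set against 3 general markers of the epithelium, in which Stk11 was deleted. It amounted to 1.35% and 1.12% of the FPKM of Nkx2-1, the lung epithelial transcription factor, in Control and to 3.47% and 4.08% in Shh-Stk11 lungs. Relative to Epcam it was at 2.39% and 1.68% against 6.07% and 6.65%, and relative to the E-cadherin gene Cdh1 at 1.76% and 1.90% against 4.36% and 4.90%. Cdh1 itself was at 130.0 and 105.1 FPKM in the Controls, against 165.1 and 162.5 FPKM after deletion (log2 difference 0.49, limma adjusted p 0.184). Over all 7 epithelial markers, 0 passed the test in limma and 1 was at an unadjusted p under 0.05, both Shh-Stk11 libraries were above both Controls in 4 (19.2% of all genes) and below them in 1 (27.6%), and log2 differences ran from -0.76 to 0.49. The lowest was that of Sftpc, the surfactant gene of alveolar type II cells, and the sum of the 7, most of it Sftpc, was 18680 and 16980 FPKM in the Controls, against 9441 and 13640 FPKM after deletion. Of 7 markers of multiciliated cells, 6 fell (limma, against 1.29% lower among all genes). The sum of the 7 was 82.6 and 86.7 FPKM in the Controls, against 27.7 and 25.4 FPKM after deletion. The 5 neuroendocrine markers summed to 20.8 and 30.9 FPKM, against 39.8 and 36.6 FPKM after deletion, and 0 of 4 tested passed in limma, with 1 at an unadjusted p under 0.05, a median log2 difference of 0.07 and a range from -0.32 to 1.11. Among the 5 endothelial markers 0 passed, 1 was at an unadjusted p under 0.05, and 4 were below both Controls in both Shh-Stk11 libraries (27.6% of all genes), with sums of 517.5 and 430.1 against 352.7 and 375.0 FPKM. Of the 5 red blood cell markers 1 fell (limma, against 1.29% lower among all genes), and their median log2 difference was -0.52. Lower at an unadjusted p under 0.05 were 2 of the 5, and 3 were below both Controls in both Shh-Stk11 libraries (27.6% of all genes). The 6 mesenchymal markers had a median of -0.18 and the 4 immune markers one of 0.17, with 0 past the threshold in limma in either list. At an unadjusted p under 0.05 were 2 mesenchymal markers, both lower, and 1 immune marker, which was higher. The 1 epithelial and 1 neuroendocrine marker at that p were higher, and the 1 endothelial marker was lower. Among all genes, 8.04% were higher and 7.18% lower at that p. Any part of all these cell types in the Ppargc1a values was not tested.

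The 5 tested genes whose pattern over the 4 libraries was nearest to that of Ppargc1a, by Euclidean distance of log2 values from the Control mean, were Emb, Il33, Cap2, Chia1 and Sod3. Emb was the nearest, at a distance of 0.169, with 18.0 and 16.8 FPKM in the Controls, against 52.0 and 66.95 FPKM after deletion. Emb encodes embigin, a cell surface chaperone of lactate transporters. Il33, an alarmin cytokine of barrier epithelium, was at a distance of 0.283, with 11.2 and 8.77 against 27.2 and 35.4 FPKM. Cap2, an actin regulator, was at 0.294, with 2.46 and 2.62 against 7.38 and 9.98 FPKM. Chia1, an acidic chitinase, was at 0.312, with 4.72 and 4.78 against 18.8 and 16.3 FPKM. Sod3, the extracellular superoxide dismutase, was at 0.321, with 1.23 and 1.12 against 4.46 and 5.51 FPKM. In each of these 5 genes both Shh-Stk11 libraries were above both Controls, which the choice by pattern fixes.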

How the data were processed

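Total RNA of E16.5 lungs gave single-end reads of 50 bases on a HiSeq instrument. The authors deposited 1 table of FPKM values. The submitters' processing notes name TopHat2 2.0.13 and Cufflinks 2.2.1, and the builds GRCm38 and mm9 without saying which was used here. All 4 value columns were used. Older symbols were matched through GENCODE M21 and RefSeq. The 13770 genes whose mean reached 0.5 FPKM were tested on log2(FPKM + 0.1) with limma 3.58.1 in R 4.3.3 (lmFit, eBayes with a trend, two-sided, genotype as the only term), with Benjamini-Hochberg adjustment over all of them and a threshold of 0.05. Log2 differences are on that scale, which understates low genes. With 2 libraries a side, exact permutation p-values cannot go below 0.333. The methods call replicates independent biological samples. Read numbers were estimated from the steps between low values. They were whole multiples, within 3% of a step, for 73.5% of 1806 low genes, and counting errors cover counting only. A count model was not used. Members and lists were chosen with earlier results of these data known. Of the list genes, 1 is not reported here and stands in no list count or median. Named were Stk11, the 9 members, list genes past the threshold and the 2 others with the largest difference in each list, markers, and the 5 genes nearest in pattern to Ppargc1a. Prkaa1, Prkaa2, Pck1, G6pc and Ucp1 are named outside this rule, after their values were seen. Replicate numbers were checked for pairing: the correlation of deviations was -0.114, so the numbers were not taken to pair the samples. Sequences are those of RefSeq (GRCm38.p6). The fit was tested on simulated data.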

Additional observations from a re-analysis of the deposited data

How the results depend on the processing

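The counts of calls, the Ppargc1a difference, the members, the named list genes and the list medians were recomputed under up to 14 alternatives, with 13 for Ppargc1a, and marker sums, family shares, ratios and pattern distances were not. None of the 8 other members was past the threshold in any (0 of 97 member fits with limma, smallest adjusted p 0.459), whereas the direction of several small differences changed. Ppargc1b was at 0.0089 with a pseudocount of 1 and with median-ratio scaling, at 0.11 with quantile normalization and at 0.0849 with length and GC trends removed. Esrra was at 0.0338 with median-ratio scaling and 0.11 with those trends removed, where Gabpa was at -0.0165. Over fits leaving out 1 library, Ppargc1b ranged from -0.59 to 0.53, Pprc1 from -0.50 to 0.38, Esrra from -0.0327 to 0.0183, Tfam from -0.0408 to 0.18 and Ppara from -0.19 to 0.28. The Ppargc1a difference was 1.45 with a pseudocount of 1 and 1.53 with length and GC trends removed, and 1.69 to 1.87 without single libraries. It has no value at a mean of at least 5 FPKM. List medians near 0 also changed sign: that of bound factors was 0.0098 with median-ratio scaling, 0.0601 without Control 1, -0.12 without Control 2 and -0.12 without Shh-Stk11 1, that of mitochondrial DNA genes 0.0197 with trends removed, 0.0102 without Control 2 and 0.0227 without Shh-Stk11 1, and that of the tricarboxylic acid cycle 0.0203 with quantile normalization and 0.0166 with trends removed. That of import genes was -0.21 without Control 1, -0.0002 without Control 2 and -0.14 without Shh-Stk11 2.

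Counts over all genes moved more. Higher and lower genes numbered 20 and 41 with no filter, and 40 to 129 and 64 to 190 without single libraries. Lower genes numbered 90 at a mean of at least 5 FPKM and 108 with trends removed. Pathway genes called lower were 0 to 1 without single libraries. Fbp1, the 1 called higher, passed in all 14.

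With replicate number as a block, 6 genes were higher and 7 lower, with 1 pathway gene higher. No label ties a number to a litter, and with 2 pairs the pairing stands on the number alone. With the numbers crossed, an alternative chosen after seeing the data, 360 genes were higher and 315 lower. With 2 libraries a group, the intervals of Ppargc1b and Pprc1 are wide, and the cause of the other moves was not tested.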
